A study of Mus musculus with 4 samples.

Results

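Old-only regions are stretches of accessible chromatin that were called in both libraries from old dystrophic mice, with and without trichostatin A (TSA), and in neither library from young mice. They were found by merging touching or overlapping regions of the 4 libraries and keeping the merged regions on the 19 autosomes with a call in old control and old TSA only. The rule gave 11916 regions of 163967 merged autosomal regions. The members were chosen by the presence or absence of a called region in each library, so their presence in old and absence in young libraries is a description and was not tested.

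Fibro/adipogenic progenitors (FAPs) are mesenchymal cells of the space around muscle fibres. They support regeneration after injury and can turn into fibroblasts or fat cells, which replace muscle in late dystrophy. In the mdx mouse, which lacks dystrophin, FAPs of young animals are known to help muscle stem cells more than those of old animals. Histone deacetylases remove acetyl groups from histones and thereby favour compact chromatin, and TSA inhibits them.

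All groups were C57BL/6 mdx mice, and FAPs were isolated from hind limb muscle by a sort for Sca-1+ cells lacking Ter119, CD45, CD31 and α7 integrin. The young TSA and old TSA groups received 0.5 mg of TSA per kg by daily intraperitoneal injection for 15 days, and the young control and old control groups received saline. The labels name the ages only as young and old, and healthy mice are not analysed here. Each group was 1 NA-seq library. This assay treats isolated nuclei with a restriction enzyme, which cuts where chromatin is open. There was thus no replicate, no spread between animals and no test between groups. The lists give positions only, with no counts or scores, so the depth of each library is unknown, a region that was not called is not shown to be closed, and the sort could not be checked against marker genes. Intervals are 95% exact binomial (Clopper-Pearson) intervals, which take regions as independent and leave out all error but counting. Positions are of the mouse build mm9, with starts counted from 1, and neither genes nor sequences at these positions are analysed here.

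The old-only pattern made up 7.27% of the merged regions. The old control library held 95128 autosomal regions, of which 11998 (12.6%) lay in old-only regions, and the old TSA library held 85889, of which 11991 (14.0%) did. The young lists were shorter, with 42904 autosomal regions in young control and 79375 in young TSA. With only the 43335 widest regions of each list, the number of regions in the shortest list, 4601 merged regions were old-only.

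**Figure D1:**
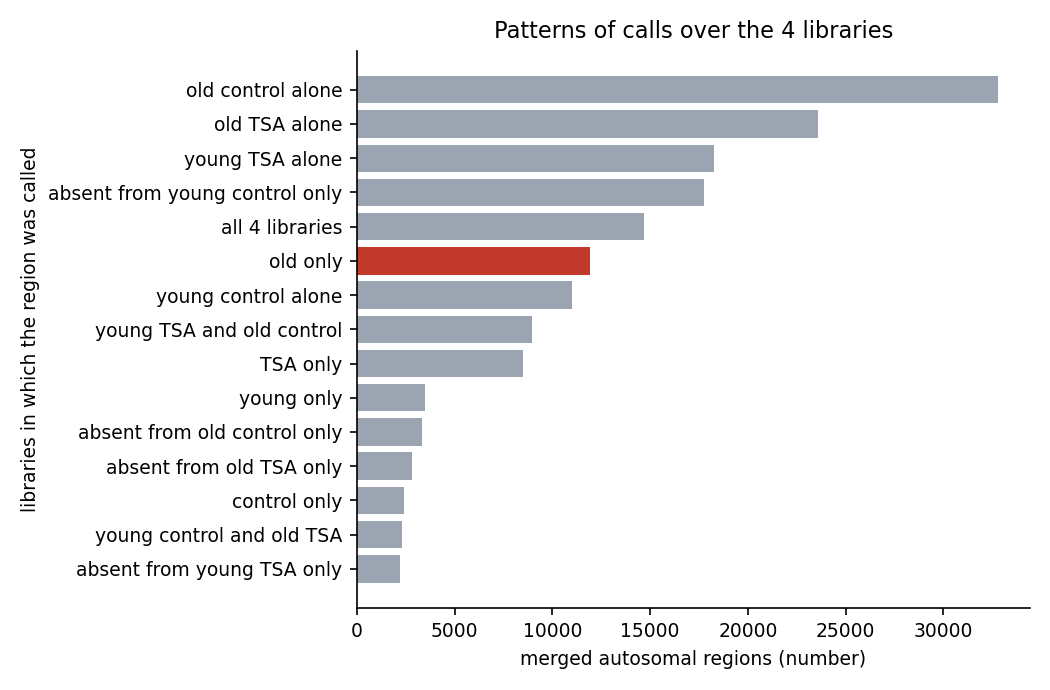
Number of merged autosomal regions (horizontal axis) with each pattern of calls over the 4 libraries (vertical axis), the old-only pattern in red. With 11916 regions it was the sixth most frequent of the 15 patterns and the young-only pattern held 3470; with lists of equal length these numbers were 4601 and 4277.

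Among the 46566 merged regions called in both old libraries, old-only regions were 25.6% (25.2 to 26.0%). A further 17768 of them (38.2%) were also called in young TSA but not in young control, 2214 (4.75%) in young control but not in young TSA, and 14668 (31.5%) in all 4 libraries. Of the young libraries, young TSA alone thus shared more of the regions called in both old libraries than young control alone did. The young TSA list was also longer, with 79375 autosomal regions against 42904 in young control. Whether list length accounts for the difference was not tested. The mirror pattern, called in both young and in no old library, held 3470 of 24259 regions (14.3%, 13.9 to 14.8%). This order was reversed with the 43335 widest regions of each list, a comparison added after seeing the data. The old-only share was then 21.2% (20.7 to 21.8%) and the young-only share 23.5% (22.9 to 24.2%). The cut keeps all of the young control list and only the widest regions of the other lists. Length and width therefore change together and cannot be told apart. The TSA libraries of both ages shared 8510 regions that neither control called, or 19.2% of the regions called in both TSA libraries, and the controls shared 2417 that neither TSA library called, or 10.9%. With the lists as deposited, the old-only share was the highest of the 6 pairs of libraries, the nearest being the 20.3% (19.9 to 20.7%) of the pair of young TSA and old control.

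The 5 widest old-only regions were picked by width and are extremes of the members. The widest spanned 7500 bp on chromosome 5 from 23163001 to 23170500, with 4700 bp called in old control and 5200 bp in old TSA. Its nearest young TSA call lay 900 bp away, and its nearest young control call 39400 bp away. The next, on chromosome 13 from 73703401 to 73709600, had 5200 bp called in old control and 4100 bp in old TSA, and a young TSA call at 1500 bp. The region on chromosome 16 from 92715401 to 92721500 was called over 3500 bp in old control and 3400 bp in old TSA, with no young call within 10 kb. In these 3 regions the old libraries covered similar lengths. The other two were covered mostly by the old control. On chromosome 10 from 76569501 to 76575600 the control call spanned 6000 bp and the TSA calls 2600 bp. On chromosome 9 from 119671501 to 119677500 these lengths were 6000 bp and 1100 bp. Both of the latter overlap the authors' list of regions higher in old control than in old TSA.

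Most members were far narrower. The merged width had a median of 1900 bp, and its middle 50% lay between 1700 and 2000 bp. In 11765 members (98.7%) each old library contributed a single call. Among these, the old control call was exactly 1900 bp long in 36.1% and the old TSA call in 30.6%. Calls of 1000 to 1400 bp, close to the smallest width in the files, were 32.3% of the control and 39.2% of the TSA calls. Calls of 2000 bp and over were 11% and 7.69%. Old-only regions therefore consisted mainly of narrow calls, and slightly narrower ones after TSA.

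**Figure D2:**
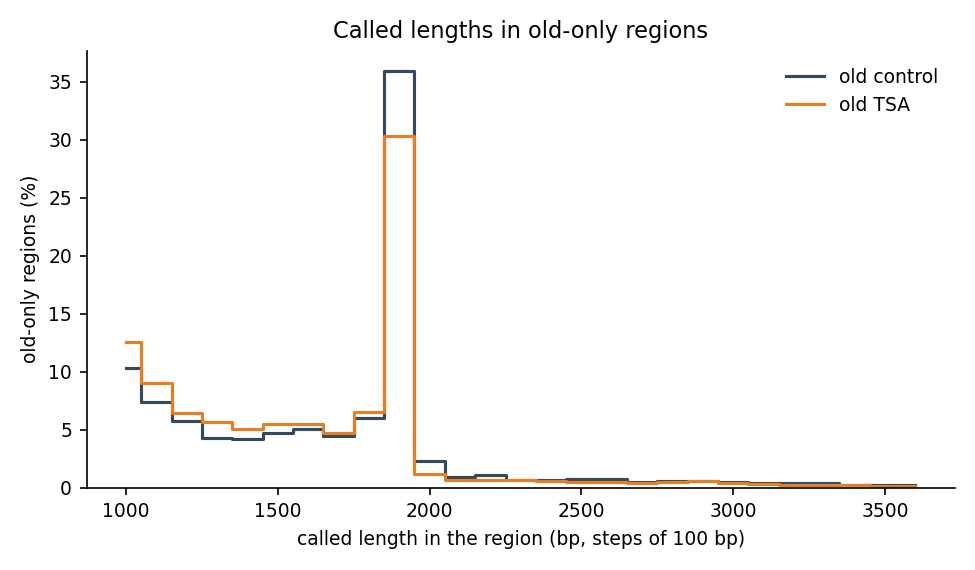
Share of the 11916 old-only regions (vertical axis, %) by called length in steps of 100 bp (horizontal axis, the few longest calls not shown), for old control and old TSA. Both libraries peak at 1900 bp, and the TSA library has more calls near 1000 bp.

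The positions called with and without TSA often matched to the 100 bp grid of the files. In 2358 of the 11765 members with a single call each (20.0%), both calls had the same start and end, and in a further 40.0% they shared exactly 1 edge. The calls were nested with no shared edge in 18.2% and staggered in 21.8%. The length covered by both calls was a median of 73.9% of that covered by either, with a middle 50% of 57.9 to 94.4%. In 75 members the calls only touched. The same measure for old control and old TSA had a median of 81.2% in regions also called in young TSA alone, 73.7% in regions also called in young control alone and 84.2% in regions called in all 4 libraries. The median of old-only regions was thus close to that of regions shared with young control alone and below those of the other patterns. The control call was longer in 5097 members (43.3%), the TSA call in 3778 (32.1%), and 2890 (24.6%) were equal. In regions called in all 4 libraries the corresponding shares were 34.9%, 33.8% and 31.3%, so the tilt towards the control was larger among the members than there. It was not particular to the members. In regions also called in young control alone the control call was longer in 42.4% and the TSA call in 34.5%. In those also called in young TSA alone these shares were 38.4% and 31.8%.

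Old-only calls were concentrated among the narrow calls of the old libraries, also without merging. Of the old control regions of 1000 to 1400 bp that overlapped an old TSA region, 43.7% (42.7 to 44.7%) overlapped no young region. This share was 34.8% at 1500 to 1800 bp, 23.7% at 1900 bp, 12.1% at 2000 to 2900 bp and 9.0% (8.09 to 9.98%) at 3000 bp and over. From the old TSA side it went from 46.1% for the narrowest to 6.69% for the widest calls. The narrowest calls that both old libraries shared were thus unmatched in young mice several times as often as the widest. A wider region also has more sequence in which a young call can fall.

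Few old-only regions differed between TSA and control in old mice. The authors deposited one list of regions higher in old TSA and one of regions higher in old control, with no fold or p-value. Of the old-only regions, 153 (1.28%, 1.09 to 1.5%) overlapped the list higher in old TSA, where 2.62% of all merged regions called in either old library and 2.13% of those called in both did. The list higher in old control overlapped 199 (1.67%, 1.45 to 1.92%), against 3.20% and 2.65%. In neither list were 11572 members (97.1%), and 8 were in both. Regions called in both old libraries and in at least 1 young library overlapped the lists in 2.42% and 2.99%, which leaves differences of -1.14 and -1.32 percentage points. With the widest regions in lists of equal length, old-only regions overlapped the lists in 1.74% and 2.61%. The differences in that setting were -1.08 and -1.10 percentage points. Membership requires a call in both old libraries, which by itself keeps out regions found with or without TSA alone. The lists of the young mice overlapped old-only regions in 2 cases (higher in young TSA, against 5.00% of all merged regions) and in none (higher in young control, against 0.274%), where absence from both young libraries keeps the number low by the rule itself.

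The lower share did not hold in every class of width, and old-only regions were narrower than the others. The stretch from the first to the last base of the old calls was 2000 bp or more in 27.0% of old-only regions, 48.3% of those also called in young TSA alone and 61.2% of those called in all 4 libraries. Among stretches of 2000 to 2900 bp, 3.74% (3.02 to 4.59%) of old-only regions overlapped the list higher in old TSA, against 2.88% and 2.85% for the others. Among those of 3000 bp and over the values were 5.33% (3.92 to 7.07%), 6.38% and 6.29%. For the list higher in old control they were 4.00% (3.25 to 4.86%), 4.84% and 3.28% at 2000 to 2900 bp, and 7.70% (5.99 to 9.71%), 7.15% and 6.04% at 3000 bp and over. In these wide classes of span the intervals of the old-only regions overlapped those of the other patterns. At exactly 1900 bp old-only regions were lowest in both lists, at 0.246% (0.127 to 0.429%) and 0.696% (0.483 to 0.972%). Regions called in all 4 libraries had 0.95% (0.691 to 1.27%) and 0.864% (0.618 to 1.17%), the latter interval overlapping that of old-only regions. Those also called in young TSA alone had 0.426% (0.285 to 0.611%) and 1.25% (0.997 to 1.54%). There the former interval overlapped that of old-only regions and the latter did not. At 1000 to 1800 bp old-only regions were highest in both lists, at 0.184% and 0.131%, from 7 and 5 regions. The intervals there overlapped those of the other patterns. The classes by span were chosen after the data were seen. By merged width, as planned, some intervals of the wide classes did not overlap. For the list higher in old TSA, both other patterns lay below the old-only interval at 2000 to 2900 bp. Their shares were 2.37% (2.01 to 2.76%) and 2.28% (1.91 to 2.69%). For the list higher in old control, only regions called in all 4 libraries lay below the old-only intervals. Their shares were 2.43% (2.05 to 2.85%) at 2000 to 2900 bp and 5.23% (4.64 to 5.87%) at 3000 bp and over.

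**Figure D3:**
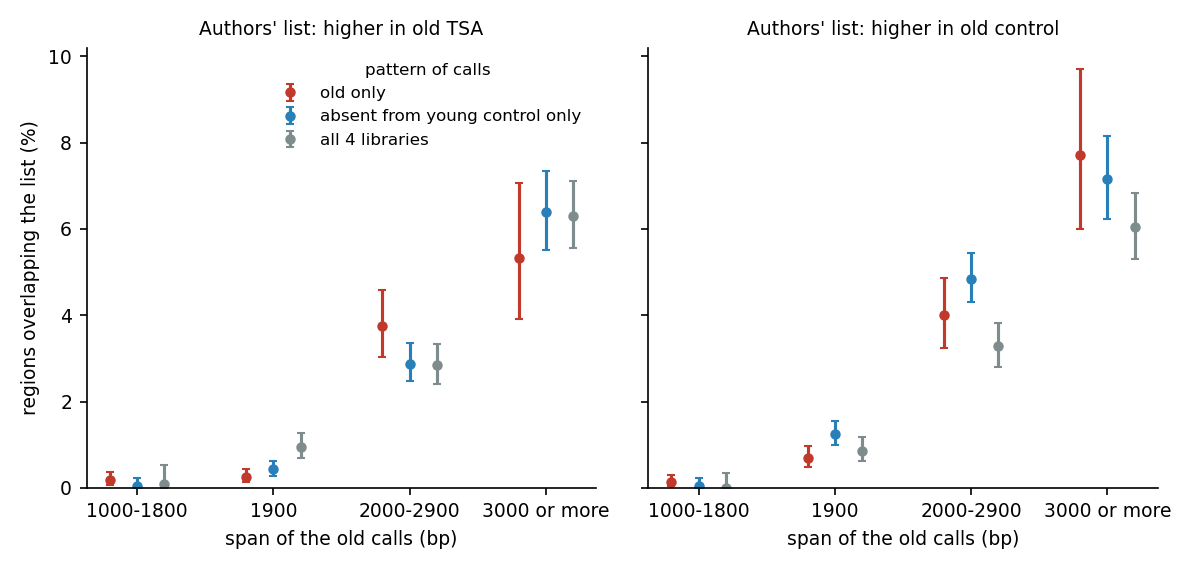
Share of regions overlapping the authors' lists of regions higher in old TSA (left) or old control (right), by the span of the old calls (horizontal axis, bp), for 3 patterns of calls. Points are shares in percent and bars 95% exact binomial intervals. In each pattern the share was at most 1.25% up to 1900 bp and at least 2.85% from 2000 bp on, and the intervals of old-only regions overlap the others in the wide classes.

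Members in a list mostly had the longer call in the matching library. Of the 153 members overlapping the list higher in old TSA, the TSA call was longer in 117 (76.5%), and of the 199 overlapping the list higher in old control, the control call was longer in 158 (79.4%). Their differential regions had median widths of 1100 and 1200 bp, and 5 of 153 and 12 of 201 were identical to a call of the matching library. Of the 153 differential regions higher in TSA, 113 overlapped the control call of the same member and 40 lay beside it. Of the 201 higher in control, 166 overlapped the TSA call. Among members in neither list, the TSA call was longer in 32.1% and the control call in 43.2%. The lists and the call lengths both compare old TSA with old control, so their match is a description and not independent support.

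The 5 widest members overlapping the list higher in old TSA differed among themselves. On chromosome 10 from 126678601 to 126683400 the TSA call covered 4800 bp and the control call 1800 bp. On chromosome 4 from 122526601 to 122530600 these lengths were 3000 and 1500 bp. The region on chromosome 10 from 110805001 to 110809100 had similar lengths, 3300 bp with TSA and 3500 bp without. On chromosome 17 from 27726101 to 27730400 the order was opposite, with 1200 bp called in TSA and 3800 bp in control, and the differential region, from 27725801 to 27727400, began before the member. The region on chromosome 5 from 63940801 to 63945000 overlapped both lists. It had 2 calls in each old library, over 3100 bp in TSA and 3500 bp in control.

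Apart from the regions on chromosomes 10 and 9 given above, the widest members overlapping the list higher in old control lay on chromosomes 18, 13 and 1. On chromosome 18 from 58988301 to 58993200 the control call covered 3300 bp and the TSA call 1700 bp, and the nearest young call was 49800 bp away. On chromosome 13 from 71020601 to 71025300 these lengths were 4700 and 1100 bp, with a young control call at 1100 bp. The region on chromosome 1 from 55770901 to 55775400 was again the exception, with 2000 bp in control and 2900 bp in TSA. Thus 4 of these 5 members had the longer call in the library of the list.

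Most old-only regions lay within 10 kb of a young call, and how often random positions do was not computed. The median distance to the nearest young TSA call was 9300 bp (middle 50% from 3200 to 24000 bp), and to the nearest young control call 19000 bp (7100 to 48600 bp). A young call of either library lay within 10 kb of 7058 members (59.2%) and within 100 kb of 11724 (98.4%). The young TSA call was the nearer in 8131 members (68.2%) and the young control call in 2826 (23.7%), with 79375 and 42904 autosomal regions in these lists. Regions called in a single old library had median distances of 8000 bp (old control alone) and 7400 bp (old TSA alone) to the nearest young call, against 7300 bp for old-only regions. Old-only regions were thus about as near to young calls as regions called in a single old library alone. These patterns all leave out regions that hold a young call.

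**Figure D4:**
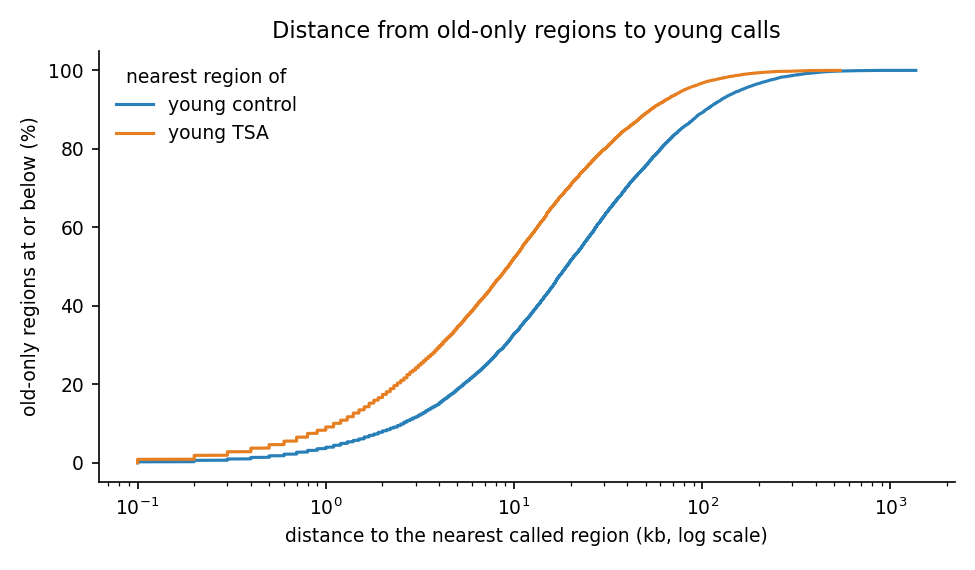
Cumulative share of the 11916 old-only regions (vertical axis, %) by distance to the nearest called region of young control or young TSA (horizontal axis, kb, log scale). The curves cross 50% at 19000 bp for young control and at 9300 bp for young TSA.

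At the edge of the rule, 127 members lay 100 bp, the smallest step, from a young call. The first of these were on chromosome 1 from 61429601 to 61431100 and from 75547901 to 75549300. In both, the old control and old TSA calls were equally long, at 1500 bp in the first and 1400 bp in the second, and the neighbouring call was in young TSA. Just outside the rule were 32 regions called in both old libraries whose old calls touched a young call without overlap, and 37 that overlapped by 100 bp. In the 34650 regions called in both old and at least 1 young library the overlap of old and young calls had a median of 1900 bp, so that few of them were near the edge.

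The members farthest from young calls were of ordinary width. On chromosome 4 from 90014201 to 90016100 both old libraries called the same 1900 bp, and the nearest young call was 395500 bp away. On chromosome 9 from 19757501 to 19759300 old control called 1000 bp and old TSA 1800 bp, 344700 bp from a young call. On chromosome 3 from 91409101 to 91411000 the lengths were 1900 and 1500 bp, 335900 bp from a young call.

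The density of old-only regions varied less between chromosomes than that of regions called in all 4 libraries. It ranged from 3.54 per Mb on chromosome 19 to 5.50 per Mb on chromosome 7, a ratio of 1.55. That of the regions called in all 4 libraries ranged from 4.54 to 7.85 per Mb, a ratio of 1.73. Regions called in both old libraries ranged from 15.5 to 23.6 per Mb and all merged regions from 57.7 to 79.2 per Mb. A narrow range was thus not particular to old-only regions. As a share of the regions called in both old libraries, old-only regions were most frequent on chromosome 3 (30.4%, 28.7 to 32.3%) and chromosome 14 (30.0%, 27.9 to 32.1%). They were least frequent on chromosome 19 (21.1%, 18.6 to 23.8%) and chromosome 11 (22.5%, 20.9 to 24.1%). The intervals of the first pair lie above those of the second. Over the 19 autosomes this share went down as the density of regions called in all 4 libraries went up (Pearson r = -0.89, Spearman rho = -0.91). The chromosomes share the same 4 libraries, and the all-library regions are part of the denominator, so this is a description only.

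The same pattern held in windows of 1 Mb with those regions left out of the denominator. In the 360 windows without any region called in all 4 libraries, old-only regions were 52.6% (50.4 to 54.7%) of the regions called in both old libraries. In the 102 windows with 21 or more they were 24.8% (23.3 to 26.3%), with values in between for the 4 intermediate classes. The number of old-only regions per window went the other way, from 3.0 to 7.67. Old-only regions were therefore more numerous where shared regions were dense, but formed a larger share of the old calls where shared regions were sparse. The young-only share of the regions called in both young libraries went from 41.9% (35.9 to 48.2%) to 30.9% (28.2 to 33.8%) over the same windows. Whether the slopes of the old-only and young-only shares differ was not tested.

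**Figure D5:**
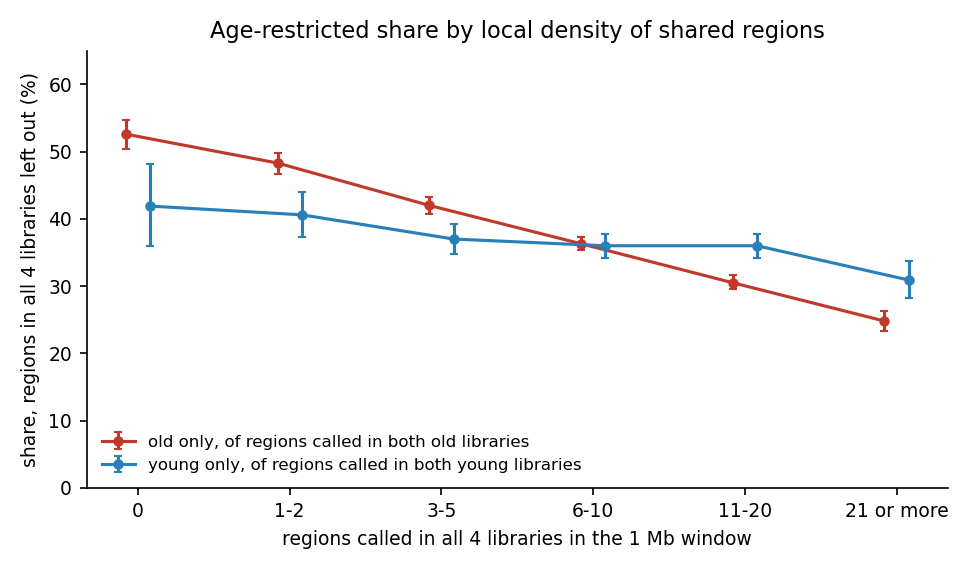
Share (vertical axis, %, with 95% exact binomial intervals) of old-only regions among regions called in both old libraries and of young-only regions among those called in both young libraries, by the number of regions called in all 4 libraries in the same 1 Mb window (horizontal axis), which are left out of the denominators. The old-only share goes from 52.6% to 24.8% and the young-only share from 41.9% to 30.9%.

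Old-only regions lay side by side slightly more often than their share of all neighbours. Another old-only region lay within 50 kb of 5569 members (46.7%) and within 10 kb of 1586 (13.3%). Of the more numerous regions absent from young control only, 66.9% had another of their kind within 50 kb, and of the 8510 TSA-only regions 41.9%. Along the chromosome, 8.30% of the regions next to an old-only region were old-only themselves, where old-only regions were 7.27% of all neighbours. Next to a region called in all 4 libraries this share was 5.92%. A neighbour of an old-only region held a young call in 53.8% of cases, against 58.4% over all neighbours and 66.6% next to regions called in all 4 libraries. In all, 10025 members (84.1%) had no old-only region directly next to them. Their small share of all neighbours favours such a value, and the value for random placement was not computed.

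The longest unbroken series held 4 old-only regions and occurred 6 times. The tightest covered 23.0 kb on chromosome 4 from 127908501 to 127931500. The next covered 29.8 kb on chromosome 2 from 51110201 to 51140000. Counting all members between consecutive young calls, the highest number was 6, in a stretch of 709 kb on chromosome 19 from 50648901 to 51357700. These stretches were picked with their values in view. The 1 Mb windows with the most members lay on chromosome 4 between 152 and 153 Mb (21 members), chromosome 7 between 38 and 39 Mb (21) and chromosome 8 between 120 and 121 Mb (20), against a median of 4 over 2412 windows. In these windows old-only regions were 26.2%, 33.9% and 40.8% of the regions called in both old libraries. The window on chromosome 4 thus had a share near that of all autosomes. Those on chromosomes 7 and 8 had higher shares, of 62 and 49 regions called in both old libraries. The windows were picked by their number of members, the numerator of these shares, so high shares are favoured by the choice. Of the members in these windows, 1 overlapped the list higher in old control and none the list higher in old TSA.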

How the data were processed

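NA-seq libraries of sorted FAPs, 1 per group, were compared. Bowtie 0.12.7 and the mouse build mm9 are named in the submitters' processing notes. Not given in the sources used here are the caller of regions and its threshold, the differential test, pooling of animals and the enzyme, of those in the protocol, that cut each library. In all, the authors deposited 8 lists of start and end positions, with no measured value. All positions are multiples of 100 bp, and the smallest width is 1000 bp. The highest called position lay beyond the last gene of the GRCm38 gene table on 10 of 19 autosomes, and that table was not joined to the mm9 positions. Merging, overlaps of at least 1 bp, edge-to-edge distances and exact binomial intervals were computed in Python 3.11.15 (scipy 1.17.1, pandas 2.3.3, numpy 2.4.6) and plotted in matplotlib 3.10.9. The functions matched a brute-force count in 20 of 20 simulated cases. Densities are per Mb between the lowest and highest called positions of a chromosome, and a region belongs to the window that holds its centre. Members and lists were chosen with earlier results of these data known. The regions named are the 5 widest members, the 5 widest in each differential list, the 3 farthest from and 2 nearest to a young call, and the 3 windows of 1 Mb with the most members. The planned gene annotation, gene lists, marker check and enzyme-site content were not run.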

Additional observations from a re-analysis of the deposited data

Results flagged for a closer look

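Of the old-only regions, 2 overlapped the authors' list of regions higher in young TSA than in young control, although neither young library had a call there, and none overlapped the list higher in young control. These lists cover 5.00% and 0.274% of all merged autosomal regions. On chromosome 4 from 48022601 to 48024100 the young differential region, from 48021001 to 48022800, covered the first 200 bp of the member, and a young TSA call lay 200 bp away. On chromosome 7 from 82512201 to 82513700 the young differential region, from 82513601 to 82515300, covered the last 100 bp, and the nearest young TSA call lay 500 bp away. Regions higher in young TSA numbered 8298 on the autosomes, and 2 of them overlapped no young TSA call. The differential lists are thus not bounded by the called regions at every edge.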

How the results depend on the processing

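Of the 42 alternative values computed, 9 changed sign, 15 moved beyond the limit set for their kind and 18 stayed within it. The limit was 1.5 times for the number of regions, 10% for the ratio of chromosomes and the 95% interval of counting error for shares and their differences. The number of old-only regions was 6373 with only the regions as wide as their list's median or wider, and 4601 with the 43335 widest regions of each list, where fewer regions enter by construction; the other alternatives gave values within 1.5 times. With the widest regions, the overlap with the list higher in old TSA was 1.74% and with that higher in old control 2.61%, and merging regions up to 500 bp apart gave 1.95% for the latter. The difference in overlap between old-only regions and other regions called in both old libraries depended on width. For the list higher in old TSA it was -1.40 percentage points after merging up to 500 bp, and 0.04, -0.18, 1.49 and -0.13 for merged widths of 1000 to 1800, 1900, 2000 to 2900 and 3000 bp and over. By the span of the old calls, chosen after seeing the data, it was 0.08, -0.36, 0.95 and -0.98. For the list higher in old control it was 0.08, -0.29, 0.78 and 2.09 by merged width and 0.11, -0.34, -0.01 and 1.28 by span. Young calls lay within 10 kb of 53.5% of members when centres were compared. The share with another member nearby was 13.3% at 10 kb and 67.8% at 100 kb, as the gap sets it. Annotation alternatives were not run. No paired analysis was possible because each group has 1 library. Depth, which the lists do not hold, limits every absence of a call.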

Other observations

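The X chromosome lies outside the rule. Of its 639 merged regions called in both old libraries, 359 (56.2%, 52.2 to 60.1%) were called in neither young library, against 25.6% on the autosomes and 30.4% on chromosome 3, the highest autosome. The labels do not give the sex of the mice, and its part in this value was not tested. On chromosome Y this held for 1 of 13 regions.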
